A study of Mus musculus with 6 samples.

Results

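NK1.1 transcript positive DN T cells were kidney T cells in which mRNA of Klrb1c, the gene of the NK1.1 antigen, was detected and mRNA of Pdcd1, the gene of PD-1, was not. The cells came from single-cell RNA sequencing of double-negative (DN) αβ T cells, sorted from mouse kidney as CD45+ TCR+ CD4- CD8- cells. A barcode was taken as such a cell if it had at least 500 detected genes, at most 20% mitochondrial UMIs, at least 1 UMI summed over Cd3d, Cd3e and Cd3g, at least 1 Klrb1c UMI and 0 Pdcd1 UMIs. A UMI (unique molecular identifier) counts 1 captured mRNA molecule. By this rule 3982 of 9309 Cd3 barcodes of the control DN library and 798 of 3951 of the IR DN library were chosen, in all 4780 of 13260, out of 54039 barcodes in the 6 libraries of the series. The remaining 5327 and 3153 Cd3 barcodes served as the other Cd3 cells in each library.

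All mice were wild-type C57BL/6J males of 7 to 8 weeks. The control group had normal kidneys, and in the ischemia-reperfusion (IR) group the blood flow of both kidneys was stopped by clamps on the renal pedicles for 30 min and then let back. CD4, CD8 and DN T cells were sorted from each group, with 1 library per group. The number of mice behind a library and the interval between clamping and sorting were not given in the sources used here. With 1 library per group there was no test and no p-value, and the intervals given are exact 95% intervals that cover counting error only. Condition, depth and the software version named in the file headers differed together between the DN libraries and cannot be told apart.

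NK1.1 (NKR-P1C) is a C-type lectin-like receptor of natural killer (NK) cells and of some T cells, among them NKT cells, and its gene lies in the NK gene complex beside the genes of the NKG2, CD94 and Ly49 receptors. Activating receptors of this kind signal through small adaptor proteins with an ITAM, such as FcRγ (Fcer1g) and DAP12 (Tyrobp), whereas inhibitory ones bind MHC class I or related molecules and recruit phosphatases. DN T cells are a small T cell population of the body that is comparatively frequent in the kidney, and part of them carry NK receptors or the transcription factor PLZF (Zbtb16).

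The cells were chosen by their Klrb1c and Pdcd1 UMIs, so the values of these genes describe the choice and are no finding. In the control library a chosen cell had a median of 2 Klrb1c UMIs and at most 19. There, 1186 cells (29.8%) stood on a single Klrb1c UMI, just inside the rule, and 922 cells (23.2%) had 5 or more. In the IR library the median was 1 and the highest count 6, and 583 cells (73.1%) stood on a single UMI. Just outside the rule were 4428 control and 3063 IR Cd3 barcodes with neither Klrb1c nor Pdcd1, together with 260 control and 12 IR cells that had both transcripts. Pdcd1 without Klrb1c was found in 639 control and 78 IR cells. A further 21 control and 58 IR barcodes had Klrb1c but failed the limits on genes or mitochondrial UMIs.

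The chosen cells had the transcripts of αβ T cells. Trbc2, a TCRβ constant gene, was detected in 98.3% of them in the control library and in 96.9% of the other Cd3 cells there. Levels are given in CPM, the counts of a gene scaled to a common total of summed UMIs. Trac, the TCRα constant gene, was at 669 against 756 CPM in the control library and 852 against 782 CPM in the IR library. Trbc2 was at 1745 against 1659 CPM and at 1852 against 1736 CPM. The 3 genes Cd4, Cd8a and Cd8b1, on which the sort was negative, summed to 1.35 CPM in control and 2.62 CPM in IR cells. The γδ constant gene Trdc was at 3.53 CPM, with UMIs in 30 of the 3982 control cells, and had 1 UMI in the IR cells.

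The genes also given as markers for these cells, Klre1 and Klrc1, were found more often in the chosen cells. Klre1 was detected in 51.4% of the control cells against 19.7% of the other Cd3 cells, and with each cell thinned to 1000 UMIs in 24.0% against 8.60%. In the IR library these shares were 21.4% against 9.29%, and 18.1% against 9.04% after thinning. Klrc1 was detected in 55.4% against 24.7% of the control cells and in 29.4% against 17.3% of the IR cells. Many chosen cells therefore had no detected UMI of a given marker. NK1.1 protein was not part of the sort or of the deposited counts, so the name rests on transcripts.

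Depth differed far more between the libraries than between the cells compared within one. The median UMI count was 8713 in chosen and 8405 in other Cd3 cells of the control library, and 1712.5 and 1476 in the IR library. The summed UMIs of the chosen cells, without mitochondrial, ribosomal protein and Malat1 features, were 30338690 and 1145387, and a sum of 0 therefore allowed a level of up to 0.0989 CPM in control and 2.62 CPM in IR cells (3 counts). Of the chosen barcodes, 57 control and 13 IR sequences also occurred in another library. Markers of cells outside the sort were summed over each list. The 8 tubule genes summed to 1.25 CPM in control and 1.75 CPM in IR cells, against 2.41 and 3.54 CPM in the other Cd3 cells. Of them, Aqp1 and Aqp2 were at 0 in the control cells and all except Lrp2 were at 0 in the IR cells. The 8 myeloid genes summed to 98.1 against 106 CPM and to 142 against 144 CPM, and the 5 B cell genes to 179 against 159 CPM and 137 against 109 CPM. The 5 endothelial genes summed to 36.5 against 59.8 CPM and 41.0 against 51.0 CPM, with Kdr at 0, and the 4 erythroid genes to 0.989 against 1.35 CPM and 22.7 against 19.9 CPM. Genes of NK cells stood apart from these lists and are given with the receptor genes.

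The share of Cd3 barcodes that were NK1.1 transcript positive was 42.8% (41.8 to 43.8) in the control DN library and 20.2% (19.0 to 21.5) in the IR DN library. At equal depth this difference was not seen. With each cell thinned to 1000 UMIs the share was 16.8% (16.0 to 17.6) in control and 18.5% (16.9 to 20.2) in IR, and with 500 UMIs it was 9.12% and 10.6%. Thinning to 1000 left out 45 control and 1695 IR barcodes that were shallower, 7 and 235 of them chosen cells. The shares were taken over barcodes that still had a Cd3 UMI after thinning, 8772 in control and 2205 in IR at 1000 UMIs and 7350 and 3345 at 500. Within the IR library the share went from 12.5% over 17.0% and 22.3% to 28.9% across 4 equal classes of barcodes ordered by depth, while in the control library the 4 classes had 37.2%, 43.1%, 46.5% and 44.3%. In the CD8 libraries, whose cells should largely lack Klrb1c, the same rule took 1.52% of control Cd3 barcodes at a median of 6943 UMIs and 0.842% of IR barcodes at a median of 1827. In the CD4 libraries it took 11.4% and 7.95%. These shares too depended on depth. At 1000 UMIs per cell the CD4 shares were 3.50% (3.12 to 3.91) in control and 5.56% (5.09 to 6.05) in IR. The CD8 shares were then 0.546% (0.398 to 0.730) in control and 0.849% (0.550 to 1.25) in IR.

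**Figure D1:**
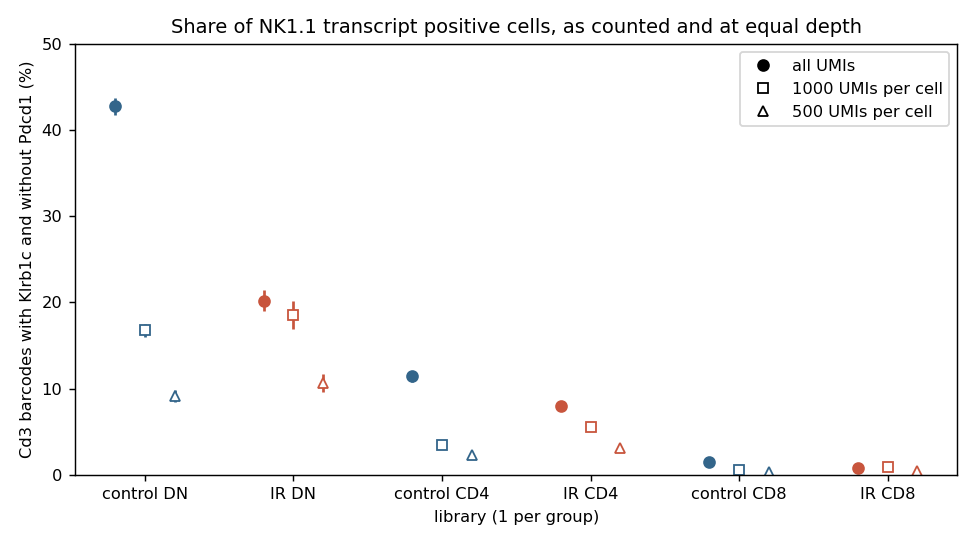
Share of Cd3 barcodes with at least 1 Klrb1c UMI and 0 Pdcd1 UMIs (y axis, percent) in each of the 6 libraries (x axis), with all UMIs (filled circles) and with cells thinned to 1000 (squares) or 500 UMIs (triangles). Bars are exact 95% intervals, blue is control and red is IR. The DN libraries stand at 42.8% and 20.2% with all UMIs and at 16.8% and 18.5% with 1000 UMIs per cell.

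The first comparison set the chosen cells against the other Cd3 cells of the same library, which asked what else the cells with the Klrb1c transcript express. A gene was called when its CPM differed at least 2-fold with at least 10 CPM in the higher sum. In the control library 41 genes (0.465% of 8815 tested) were called higher in the chosen cells and 90 (1.02%) lower. In the IR library 69 genes (0.769% of 8974) were called higher and 167 (1.86%) lower, on far fewer UMIs. The median log2 ratio of all genes tested was 0.00 in control and -0.01 in IR. The intervals were off 0 for every gene called in control, and for 59 of 69 and 144 of 167 in IR. These intervals were not adjusted for the number of genes and belong to genes picked for a large ratio, so IR calls on few UMIs may come from counting error alone. At a minimum of 50 CPM, 18 genes were called higher and 23 lower in control, and 8 and 9 in IR. Both sides of these ratios come from the cells that the rule split, so they are descriptions.

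Most NK receptor genes tested were called higher in the chosen control cells when all UMIs were used. Of 24 listed genes, 20 could be tested in the control library, and 13 were called higher and 1 lower, with a median log2 ratio of 1.23. After thinning to 1000 UMIs per cell, 10 of 21 were called higher and 1 lower, with a median of 0.97. Klrk1, which encodes the activating receptor NKG2D, was at 838 CPM in chosen and 403 CPM in other Cd3 cells, a log2 ratio of 1.06 (1.03 to 1.08). Klrc1, the gene of the inhibitory receptor NKG2A, was at 435 against 164 CPM, 1.41 (1.37 to 1.45) on the log2 scale, and Klrc2, for NKG2C, at 275 against 103 CPM. Their partner chain CD94, from Klrd1, was at 429 against 201 CPM. Klre1, whose product pairs with the Klri1 or Klri2 chain, was at 349 against 110 CPM, 1.67 (1.62 to 1.72) on the log2 scale, and Klri2 itself was at 28.0 against 11.4 CPM. Both chains of the CD94-NKG2 and Klre1-Klri2 pairs were thus called higher.

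The Ly49 receptors, which bind MHC class I, followed the same direction. Klra9 was at 147 against 38.2 CPM, a log2 ratio of 1.94 (1.86 to 2.02), Klra7 at 178 against 57.6 CPM and Klra1 at 212 against 84.3 CPM. Klra6 was at 28.6 against 8.86 CPM and Klra5 at 87.7 against 39.1 CPM, whereas Klra3 at 30.3 against 16.2 CPM was not called. Ly49 genes and the Klrc genes have closely similar copies, and reads could be assigned to the wrong copy, so the levels of single members are uncertain. Klrg1, an inhibitory receptor for cadherins, was the only receptor gene of the list called lower, at 9.66 against 21.3 CPM. Klrb1f, a relative of Klrb1c in the same family, was at 25.2 against 44.3 CPM and was not called.

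With the IR library, 19 receptor genes could be tested, 4 were called higher and none lower, and the median log2 ratio was 0.80. The count depended on the setting, with 2 of 20 when the other Cd3 cells were reweighted by depth and 9 of 20 when at least 2 Klrb1c UMIs were required. After thinning to 1000 UMIs per cell it was 5 of 19, with a median of 0.63 beside 0.97 in control. Klre1 was at 260 against 111 CPM, a log2 ratio of 1.23 (1.01 to 1.45), and Klra1 at 163 against 77.7 CPM, 1.07 (0.80 to 1.34). Klri2 was at 28.8 against 14.2 CPM and Klrb1a at 17.5 against 3.54 CPM, the latter from 20 UMIs. Klrk1 at 567 against 411 CPM and Klrc1 at 306 against 226 CPM were not called. Klra5 at 66.4 against 33.2 CPM stood just under the 2-fold limit. Klrb1c was found more often in the deeper barcodes of this library, from 12.5% to 28.9% across the classes of depth, and how many of its other Cd3 cells had undetected Klrb1c was not tested.

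Of the 41 genes called higher in the control library, 12 (29.3%) lay in the NK gene complex, taken as chr6:128609227-131247362 in the GRCm38 build, against 20 of all 8815 genes tested (0.227%). In the IR library it was 4 of 69 (5.80%) against 21 of 8974 (0.234%). After thinning to 1000 UMIs per cell, 8 of 54 genes called higher in control and 5 of 305 in IR lay there. No gene of the region was called lower in either library. Klrb1c itself lies there and was left out of these counts. The 12 control and 4 IR genes are all receptor genes already counted above, so their position gives the same result again and not a separate one.

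To show what stands before these genes, the bases ahead of the transcription start are printed for the rule gene Klrb1c, for 2 receptor genes of the complex and for 2 genes on other chromosomes, Fcer1g and Ncr1, from RefSeq on the GRCm38.p6 build. For each gene 1 annotated start was used, and starts in other annotations were not compared with it. Each is written 5′ to 3′ on the strand of its gene, and capitals mark TGTGGT or its reverse complement ACCACA, the core bound by RUNX factors. The motif was chosen after the sequences were seen. The windows are chr6:128788642-128788886, chr6:129678974-129679223, chr6:129623865-129624114 and chr1:171234366-171234599 on the minus strand and chr7:4337465-4337714 on the plus strand, and that of Fcer1g ends 16 bases before the start.
Klrb1c: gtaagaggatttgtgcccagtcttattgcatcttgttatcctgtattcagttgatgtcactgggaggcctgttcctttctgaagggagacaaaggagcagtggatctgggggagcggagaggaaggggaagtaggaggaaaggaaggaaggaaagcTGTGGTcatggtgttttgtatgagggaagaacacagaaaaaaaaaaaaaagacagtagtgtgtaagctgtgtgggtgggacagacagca
Klrc1: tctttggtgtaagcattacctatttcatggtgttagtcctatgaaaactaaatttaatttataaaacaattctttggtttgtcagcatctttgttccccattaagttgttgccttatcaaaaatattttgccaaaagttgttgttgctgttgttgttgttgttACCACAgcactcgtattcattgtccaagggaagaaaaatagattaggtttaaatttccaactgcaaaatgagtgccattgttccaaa
Klrk1: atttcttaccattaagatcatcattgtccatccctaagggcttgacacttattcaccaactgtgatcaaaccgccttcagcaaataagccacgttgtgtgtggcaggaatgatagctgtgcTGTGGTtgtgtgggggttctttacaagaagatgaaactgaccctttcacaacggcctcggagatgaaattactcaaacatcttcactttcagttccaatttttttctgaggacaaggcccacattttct
Fcer1g: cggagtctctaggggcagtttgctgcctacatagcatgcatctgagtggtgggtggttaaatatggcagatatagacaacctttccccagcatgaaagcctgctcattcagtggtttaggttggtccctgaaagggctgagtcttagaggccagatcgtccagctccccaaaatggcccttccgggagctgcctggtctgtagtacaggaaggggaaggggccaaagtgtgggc
Ncr1: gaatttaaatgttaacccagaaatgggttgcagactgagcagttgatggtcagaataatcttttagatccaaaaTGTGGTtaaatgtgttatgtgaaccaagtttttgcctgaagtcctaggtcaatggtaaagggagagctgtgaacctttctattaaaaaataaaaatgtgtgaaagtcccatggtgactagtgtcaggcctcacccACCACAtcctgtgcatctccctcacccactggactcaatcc
The sequences of Klrb1c, Klrc1 and Klrk1 hold 1 match each and that of Ncr1 holds 2, and these letters are not in the Fcer1g window. Over promoter windows of 300 bases, TGTGGT on either strand was in 16 of 40 windows (40.0%) of the genes called higher in the control library, or 14 of the 31 such genes with a window, and in 16.8% of all 32851 windows. TCACAC or GTGTGA, the core of T-box motifs, was in 9 of those 40 windows (22.5%) and in 14.5% of all. A match describes letters only. Klrc1, Klrk1 and Ncr1 are among the genes called higher, so the share for TGTGGT includes sequences seen before this motif was chosen. Several of the genes are closely similar copies, so their windows are not independent. The 14 of 31 counts genes, whereas the 16.8% counts windows. An excess was not tested.

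Among the receptor adaptors, FcRγ and DAP12 were called higher, and DAP10 and CD3ζ were not. Fcer1g, whose FcRγ chain carries the signal of NK1.1, was at 325 against 85.3 CPM in the control library, a log2 ratio of 1.93 (1.87 to 1.99), and at 510 against 241 CPM in the IR library, 1.08 (0.93 to 1.23). Tyrobp, for DAP12, was at 95.8 against 13.1 CPM, 2.87 (2.73 to 3.01), and at 113 against 40.9 CPM, 1.47 (1.12 to 1.82). Clnk, an adaptor of immunoreceptor signalling, was at 136 against 45.5 CPM and at 57.6 against 25.6 CPM. Plcg2, a phospholipase of the same pathways, was at 13.3 against 3.91 CPM in the control library. Hcst, which encodes the NKG2D adaptor DAP10, was at 944 against 861 CPM, and Cd247, the CD3ζ chain, at 288 against 262 CPM. Of 18 listed adaptor and proximal signalling genes, 4 of 16 tested were called higher in control and 3 of 15 in IR, none lower, with medians of 0.02 and 0.00.

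**Figure D2:**
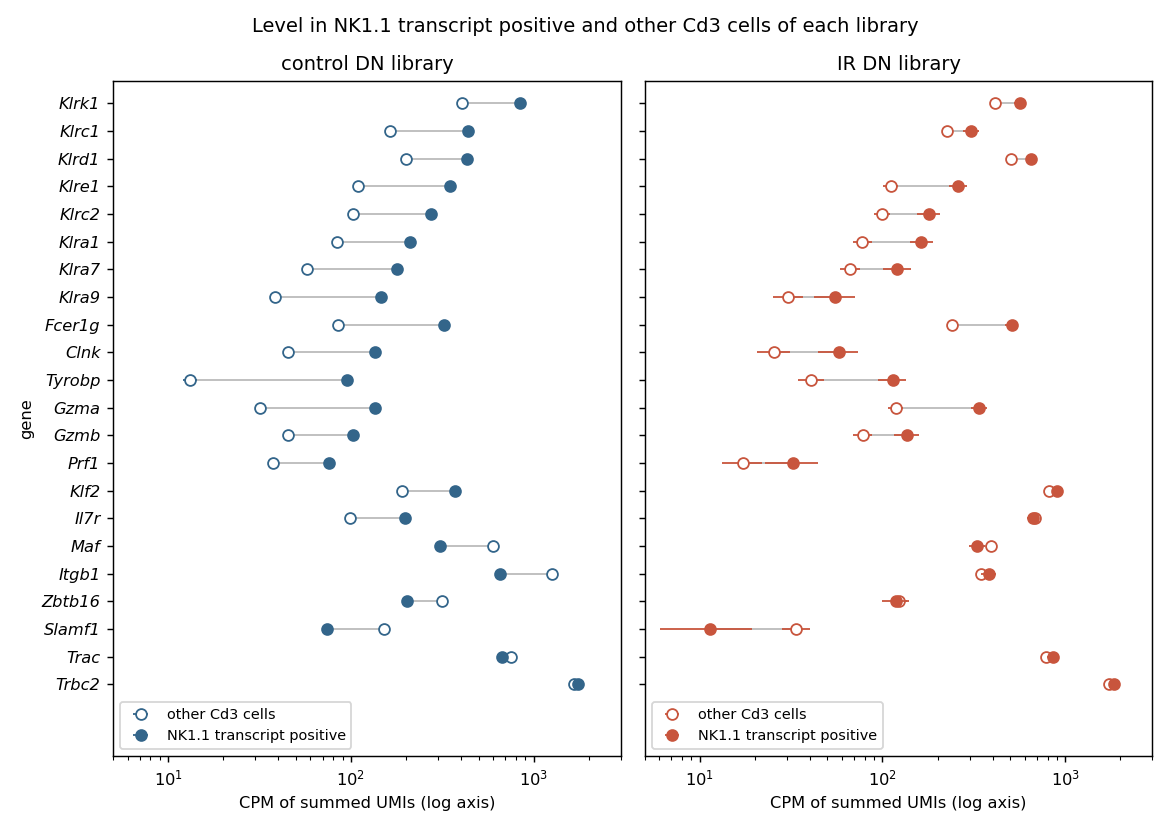
Level of 22 genes (y axis) in CPM of summed UMIs (x axis, log scale) in NK1.1 transcript positive cells (filled) and other Cd3 cells (open) of the control DN library (left, blue) and the IR DN library (right, red). Bars are exact 95% Poisson intervals and grey lines join the values of a gene. In the control panel the receptor and adaptor genes at the top lie to the right in the filled points, while Maf, Itgb1, Zbtb16 and Slamf1 lie to the left, and Trac and Trbc2 nearly coincide.

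Genes known from NK cells were also higher. Of 8 listed genes, 6 could be tested in each library, and 5 were called higher in control and 3 in IR, with medians of 1.59 and 1.19. At 1000 UMIs per cell it was 3 of 6 and 1 of 6, with medians of 0.95 and 0.70. Klrd1, Tyrobp, Gzma and Prf1 also stand in the other lists given here. All 8 had UMIs in both libraries, and they summed to 822 CPM against 335 CPM in control and to 1184 against 709 CPM in IR. Ncr1, for the NK cell receptor NKp46, was at 31.3 against 2.51 CPM in control, a log2 ratio of 3.64, and at 19.2 against 3.54 CPM in IR, from 22 UMIs. It was detected in 258 control cells (6.48%) and 14 IR cells, against 0.751% of the other control cells. The 258 cells with Ncr1 had Trac at 557 CPM and Trbc2 at 1940 CPM, and the other chosen control cells had 678 and 1728 CPM. They also had more Eomes, a transcription factor of NK cells, at 25.2 against 5.07 CPM, more Tyrobp at 537 against 59.0 CPM and more Gzma at 719 against 85.9 CPM. Without all barcodes with an Ncr1 UMI, 33 genes were called higher in control, all of them among the 41. Of 20 receptor genes, 12 were then called higher and 2 lower, and 1 gene of the NK gene complex was called lower. NK cells have no TCR and the sort took TCR+ cells, and the part of NK cells in the result was not tested.

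Of the cytotoxic genes, 3 of 11 tested in control and 1 of 12 in IR were called higher, out of 14 listed, with medians of 0.35 and 0.27. Gzma, a granzyme of NK and killer T cells, was at 135 against 31.9 CPM in control and at 336 against 118 CPM in IR. After thinning to 1000 UMIs per cell its log2 ratio was 1.05 in control and 0.78 in IR, where none of the 12 cytotoxic genes was then called. It was held by few cells. In control 271 chosen cells (6.81%) had a Gzma UMI and 10 cells carried 32.9% of the UMIs, and in IR 41 cells had one and 10 of them carried 78.4%. Gzmb was at 102 against 45.1 CPM and Prf1, for perforin, at 76.3 against 37.6 CPM in control, and in IR they were at 136 against 77.9 CPM and 32.3 against 17.2 CPM, which was not called. Nkg7, a granule protein gene expressed across killer cells, was at 1240 against 1071 CPM and at 1193 against 1005 CPM.

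Cytokine genes differed little. Of 20 listed genes, none was called higher in either library, and 2 of 16 tested were called lower in control. With Pdcd1 positive cells kept among the chosen cells none of 16 was called, and against other Cd3 cells without Pdcd1 only 1 was called higher and 1 lower. After thinning to 1000 UMIs per cell, 1 of 16 was called lower in control and 3 of 15 in IR. Ifng, for interferon-γ, was at 457 against 485 CPM in control and at 1002 against 999 CPM in IR, a log2 ratio of 0.01 (-0.09 to 0.10). Xcl1, a chemokine for dendritic cells, was at 806 against 799 CPM and at 1533 against 1240 CPM. Il4 was at 91.8 against 128 CPM and at 131 against 142 CPM. Ccl1, a chemokine that attracts cells with CCR8, was called lower at 23.5 against 167 CPM, but 86.0% of its 712 UMIs in the chosen cells were in 10 cells, and 2397 of the 6595 UMIs of the other Cd3 cells were in 15 cells that had both Klrb1c and Pdcd1. Tnfsf11, for RANKL, was at 14.6 against 32.6 CPM.

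The transcription factors of T cell lineages hardly passed the 2-fold limit, though several had intervals off 0. None of 20 tested in control was called, of 26 listed, and in IR 1 of 21 was called, Id3, at 10.5 against 22.9 CPM from 12 UMIs. Tbx21, for T-bet, was at 384 against 343 CPM in control and Gata3 at 192 against 195 CPM. Zbtb16, for PLZF, was at 204 against 315 CPM, a log2 ratio of -0.63 (-0.67 to -0.58), and at 118 against 124 CPM in IR. Maf was at 308 against 598 CPM, -0.96 (-0.99 to -0.92), just short of the 2-fold limit, and at 329 against 394 CPM in IR. Klf2, which drives genes of recirculation, was at 372 against 190 CPM in control and at 898 against 816 CPM in IR.

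Of 21 homing genes listed, none of 17 tested was called lower in control and 1 of 18 in IR. This was Ccr7, a receptor for entry into lymph nodes, at 3.49 against 10.9 CPM, from 4 UMIs. Itgb1, the integrin β1 chain, was at 658 against 1254 CPM in control and at 381 against 346 CPM in IR. Cxcr6, a chemokine receptor of tissue T cells, was at 1100 against 1138 CPM in control. Of 19 cytokine receptor genes, 1 of 16 tested was called lower in control, Il23r, at 0.857 against 10.7 CPM, and none of 15 in IR. Il7r was at 198 against 99.3 CPM in control, a log2 ratio of 0.99, and at 666 against 681 CPM in IR.

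A few coinhibitory or costimulatory receptors and most cell cycle genes stood lower in the chosen control cells. Of 19 coinhibitory and costimulatory genes, 3 of 16 tested were called lower in control and 1 of 17 in IR. Set against other Cd3 cells without Pdcd1 only, 1 of 15 was called lower in control, and after thinning to 1000 UMIs 1 of 15 in control and 0 of 17 in IR. The coinhibitory gene Ctla4 was at 18.3 against 67.5 CPM. The costimulatory genes Tnfrsf4, for OX40, and Slamf1 were at 3.86 against 12.1 CPM and at 73.8 against 151 CPM, and in IR Slamf1 was at 11.3 against 33.8 CPM. Of 12 cell cycle genes 7 were called lower in control, with a median log2 ratio of -1.63. Mki67, a marker of dividing cells, was at 17.5 against 69.4 CPM and detected in 2.31% against 8.71% of cells, and Top2a was at 27.9 against 96.8 CPM. The rule kept cells with Pdcd1 among the other Cd3 cells, and the 639 control cells with Pdcd1 alone had Mki67 at 150.5 CPM, Ctla4 at 206 CPM and Maf at 1171 CPM. Set against other Cd3 cells without Pdcd1 only, 6 of 11 cell cycle genes were called lower with a median of -1.07, and 43 genes in all in place of 90. With the 5% of barcodes with the most UMIs left out it was 4 of 9 cell cycle genes, with a median of -0.32, and 50 genes in all. In IR 1 of 8 cell cycle genes was called, Pclaf, higher from 19 UMIs that were all in 1 cell. None of 12 immediate early genes and none of 11 heat shock genes was called in control, and none of 12 and 10 in IR.

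Most calls were not shared by the libraries. Of all genes tested, 0.465% were called higher and 1.02% lower in control, and 0.769% and 1.86% in IR. Called higher in both were 9 genes, which were 22.0% of the control and 13.0% of the IR list: Fcer1g, Tyrobp and Clnk of the adaptors, Klre1, Klri2 and Klra1 of the receptors, Ncr1, Gzma and Aoah. After thinning, Gzma was not called in IR. Aoah, which encodes an enzyme that inactivates bacterial lipopolysaccharide, was at 29.6 against 6.93 CPM in control and at 17.5 against 5.18 CPM in IR. Called lower in both were 8 genes, 8.89% of the control and 4.79% of the IR list, Slamf1, Ass1, Cxcl10, Nav2, Igf1r, Zdhhc2, Ifngas1 and Pxdc1. Of the genes called higher in control that could be tested in IR, 28 of 33 had the same sign there, and of those called lower 35 of 40, while over all genes tested in both it was 54.0% of 8267. Aoah, Nav2, Igf1r, Zdhhc2, Ifngas1 and Pxdc1 were named after their values were seen.

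The largest differences outside the lists rested on very different numbers of cells. In control, among genes with at least 50 CPM in the higher sum, Lrmda stood at 57.1 against 15.7 CPM with UMIs in 398 chosen cells. Chst2, a sulfotransferase gene, stood lowest next to Ccl1 at 23.3 against 112 CPM, followed by Nrp1, for neuropilin-1, at 11.8 against 52.4 CPM. The IR library had Lrmda at 15.7 against 16.1 CPM, Chst2 at 14.0 against 21.5 CPM and Nrp1 at 10.5 against 15.8 CPM. In IR, Mmp9, for a matrix metalloproteinase, was at 80.3 against 33.2 CPM in 68 cells. Olfr1369-ps1 was called higher from 63 UMIs in 7 cells. Apod, for apolipoprotein D, had 0 UMIs in the chosen IR cells and 186 in the other Cd3 cells, all from 7 barcodes. With the barcodes that also occur in another library left out, the other Cd3 cells had 1 UMI of it. Ass1, for argininosuccinate synthase, was at 92.5 against 188 CPM in IR and at 28.0 against 58.9 CPM in control.

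The chosen cells differed among themselves by how much Klrb1c they had. In the control library Klre1 was at 102 CPM in cells without Klrb1c or Pdcd1, and at 242, 303, 382 and 469 CPM in cells with 1, 2, 3 to 4 and 5 or more Klrb1c UMIs. Fcer1g stood at 74.5, 188, 264, 335 and 513 CPM in the same order and Tyrobp at 12.8, 46.3, 62.3, 100 and 172 CPM. These and Klrk1, Klrc1, Klra1, Klra7 and Ncr1 were higher in each class than in the one before. Maf went the other way with 490, 339, 323, 300 and 269 CPM, as did Zbtb16 with 264, 241, 208, 194 and 169 CPM. Trac stayed between 630 and 743 CPM. The median depth of the classes went up as well, from 8208.5 to 9260.5 UMIs. In the IR library Klre1 was at 112 CPM without Klrb1c and at 263, 290 and 138 CPM with 1, 2 and 3 to 4 UMIs, and Fcer1g at 246, 498, 530 and 570 CPM, with 57 cells in the last class.

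**Figure D3:**
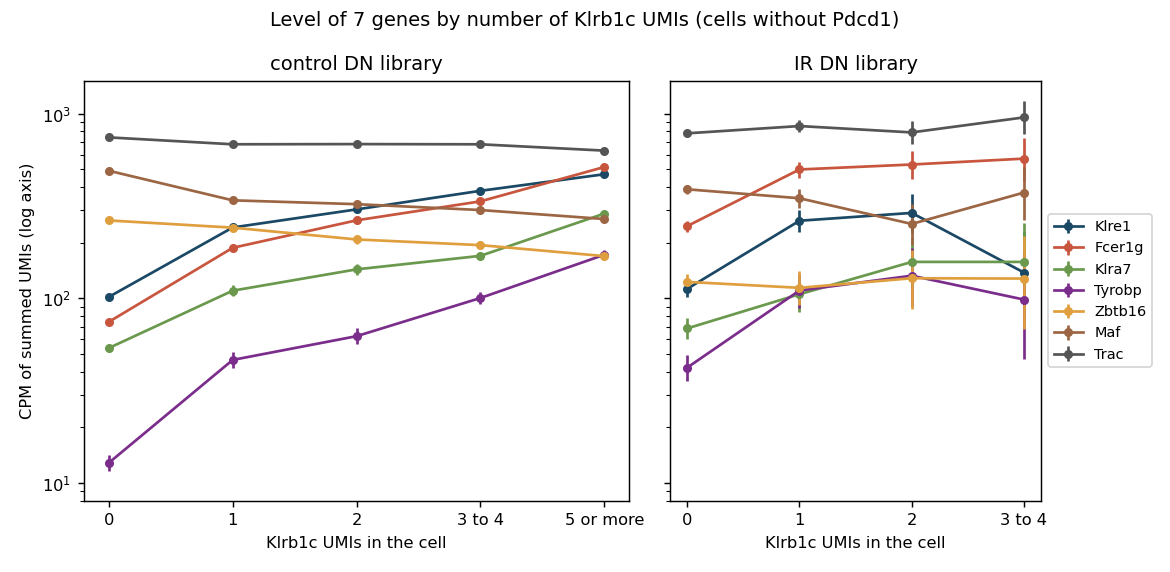
Level of 7 genes in CPM of summed UMIs (y axis, log scale) in Cd3 cells without Pdcd1, by the number of Klrb1c UMIs in the cell (x axis), in the control DN (left) and IR DN library (right, where the class of 5 or more held 2 cells and is left out). Bars are exact 95% Poisson intervals. Klre1, Fcer1g, Klra7 and Tyrobp go up from class to class in control, Maf and Zbtb16 go down, and Trac stays between 630 and 743 CPM.

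Detection of Fcer1g and of Zbtb16 divided the chosen cells. In control, 902 cells had Fcer1g only, 1556 Zbtb16 only, 684 both and 840 neither, at median depths of 8439.5, 9014, 10179.5 and 7790 UMIs. Zbtb16 was found in 43.1% of the cells with Fcer1g and in 64.9% of those without, and in 10.5% against 17.3% at 1000 UMIs per cell. In IR 214, 88, 13 and 483 cells fell in these classes, and Zbtb16 was found in 5.73% and 15.4%, or 4.58% and 10.9% at 1000 UMIs. The genes used for this split are not compared between the classes.

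The 4 Ly49 genes compared between these classes, Klra1, Klra5, Klra7 and Klra9, were higher in the control cells with Fcer1g only than in those with Zbtb16 only. Klra7 was at 519 CPM in control cells with Fcer1g only and at 14.5 CPM in those with Zbtb16 only, and at 251 CPM in cells with both and 49.5 CPM in cells with neither. Klra1 was at 470 against 46.7 CPM, and at 374 and 76.2 CPM in cells with both and with neither. Klra5 was at 213 against 24.3 CPM and Klra9 at 330 against 44.8 CPM. In IR Klra7 and Klra1 were at 388 against 5.89 CPM and 496 against 35.3 CPM, on 1 and 6 UMIs in the 88 cells with Zbtb16 only. Klre1 was at 670 against 150 CPM in control and 505 against 106 CPM in IR. Of the NKG2 genes, Klrk1 was at 1191 against 596 CPM, Klrc1 at 538 against 343 CPM and Klrc2 at 402 against 176 CPM in control, and in IR they were at 802 against 383, 349 against 247 and 228 against 135 CPM. In control Tyrobp was at 264 against 18.0 CPM and Clnk at 273 against 62.7 CPM. Cd160, a receptor for HVEM, was at 319 against 51.9 CPM.

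Genes outside the receptors also differed between these classes. Ccl5, a chemokine of effector T and NK cells, was at 3633 CPM with Fcer1g only and 836 CPM with Zbtb16 only in control, and at 12098 against 2515 CPM in IR. Ikzf2, for Helios, was at 794 against 236 CPM in control and 580 against 271 CPM in IR. Higher in the Zbtb16 class were Il4, at 149 against 13.7 CPM in control and 224 against 42.4 CPM in IR, Maf, at 368 against 194 CPM and 630 against 173 CPM, and the potassium channel gene Kcnq5, at 3253 against 1615 CPM and 1219 against 545 CPM. Ifng was close in both classes, at 436 against 469 CPM in control and 1011 against 990 CPM in IR. Trac was at 583 against 712 CPM in control. Eomes was at 23.9 CPM in the Fcer1g class of control and at 0 in the Zbtb16 class.

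**Figure D4:**
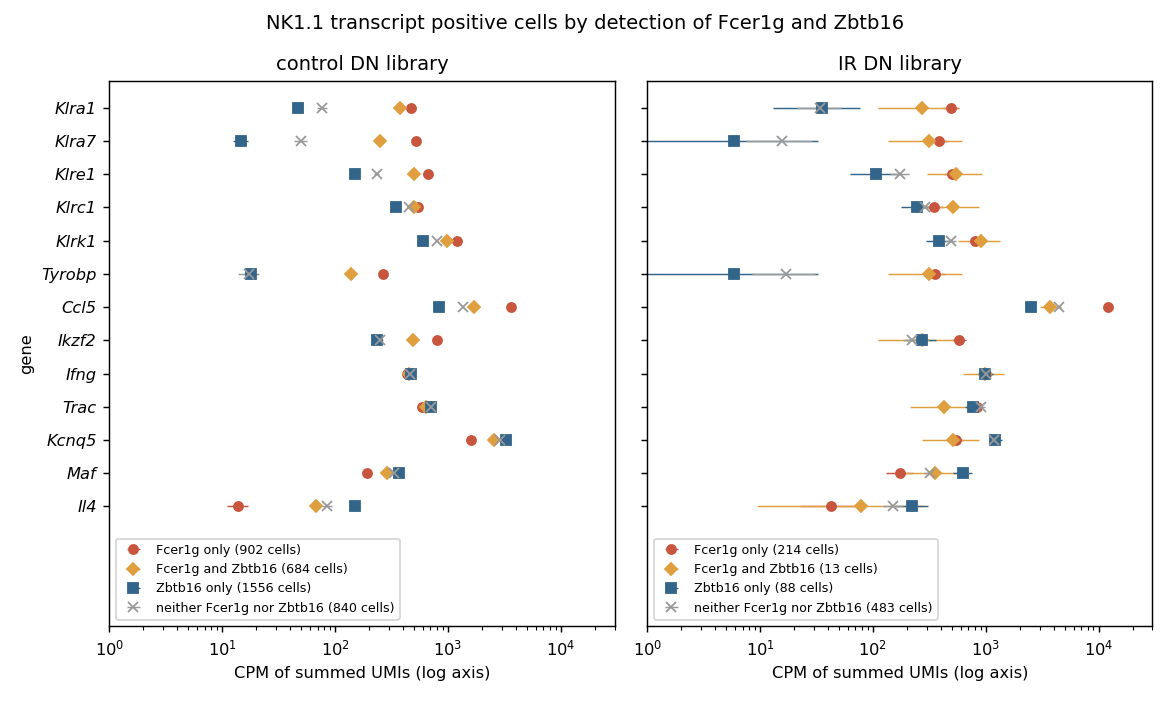
Level of 13 genes (y axis) in CPM of summed UMIs (x axis, log scale) in NK1.1 transcript positive cells with Fcer1g only (red circles), Fcer1g and Zbtb16 (orange diamonds), Zbtb16 only (blue squares) and neither (grey crosses), control DN left and IR DN right. Bars are exact 95% Poisson intervals, and a class with 0 UMIs has no point. Klra7 in control spans 14.5 to 519 CPM between the classes, while Ifng is at 436 CPM with Fcer1g only and at 469 CPM with Zbtb16 only.

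Cells outside the rule shared part of this pattern. The 579 control and 391 IR cells with Fcer1g and neither Klrb1c nor Pdcd1 had Klre1 at 343 and 354 CPM, Klrk1 at 812 and 681 CPM and Klra7 at 283 and 364 CPM. The 3849 and 2672 Cd3 cells with none of the 3 transcripts had Klre1 at 60.2 and 72.4 CPM and Klra7 at 14.3 and 19.8 CPM. In the control CD4 library, 1089 cells met the same rule, and they had Klre1 at 104 CPM, Fcer1g at 41.6 CPM, Klra7 at 7.06 CPM and Zbtb16 at 345 CPM. In the control libraries, DN cells with the Klrb1c transcript thus had higher levels of Klre1, Fcer1g and Klra7 than CD4 cells with it.

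Invariant NKT cells carry a Vα14-Jα18 chain with few Vβ chains. The 10 listed genes of these cells, Zbtb16 among them, summed to 323 CPM in chosen and 453 CPM in other control cells, with a median log2 ratio of -0.49, and to 225 against 229 CPM in IR, with a median of -0.08. Traj18 was at 61.2 against 59.5 CPM in control and at 46.3 against 49.3 CPM in IR, and Trav11 at 4.42 against 4.70 CPM in control. None of 4 genes tested was called in control, and none of 4 γδ T cell genes tested of 9. In IR Trbv13-2 was called, at 14.8 against 6.54 CPM from 17 UMIs. As a share of all Trbv UMIs, Trbv13-2 (Vβ8.2) made up 18.8% (17.2 to 20.4) of 2400 UMIs in chosen control cells and 23.9% (22.4 to 25.5) of 3100 in other Cd3 cells. Trbv29 (Vβ7) made up 10.0% against 12.1%, and Trbv1 10.7% against 9.06%.

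A minority of the variable segments had a ratio with an interval off 0 in control. The intervals of segment shares and ratios take each UMI as independent, but several UMIs often came from 1 cell. The 64 Trbv15 UMIs of the chosen cells, for example, were in 37 cells. The intervals may thus be too narrow, and they were not adjusted for the number of segments. Of 20 Trbv segments with enough UMIs (20), 6 had a ratio whose interval lay above 0 on the log2 scale and 2 below, and of 31 Trav segments 2 lay above and none below. Trbv12-1 made up 3.29% against 1.55%, Trbv15 2.67% against 1.61%, Trbv3 2.04% against 1.29%, Trbv17 1.83% against 0.839%, Trbv14 1.04% against 0.226% and Trbv26 0.750% against 0.258%. Among Trav segments, Trav14-1 made up 2.16% against 0.809%. Trav4-4-dv10 made up 4.23% against 0.270%, but its 41 UMIs were in 13 cells, with 21 in a single one. For IR, with 145 Trbv and 62 Trav UMIs in the chosen cells, 8 and 2 segments could be compared and no interval lay off 0.

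The second comparison set the chosen cells of the IR library against those of the control library, beside the same ratio in the other Cd3 cells. In the chosen cells 714 genes (7.75% of 9208 tested) were called higher and 1143 (12.4%) lower in IR, and in the other Cd3 cells 793 and 1063 of 9292. The median log2 ratio was -0.26 and -0.25, so that most genes read slightly lower. When the mitochondrial, ribosomal protein and Malat1 features were kept in the totals, the median went to -0.43 and the calls to 485 higher and 1532 lower, that is from 38.4% to 24.0% higher. Of 8978 genes tested in both, none was 2-fold higher in one set of cells and 2-fold lower in the other. The ratio itself was at least 2-fold higher in the chosen cells for 92 genes and in the other Cd3 cells for 163. Of these differences, 179 passed a limit set by counting error, which was not adjusted for the number of genes. As these genes were picked for a large difference, some may pass it by counting error alone. The rule took 42.8% and 20.2% of the Cd3 barcodes at unequal depth, so the cells compared were not matched in depth.

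The largest ratios were shared by the other Cd3 cells, so that the libraries as a whole stood apart. Among the 10 genes that stood highest, Srrm4 went from 0.330 to 123 CPM, a log2 ratio of 8.54 beside 9.40 in the other Cd3 cells, Gm50306 from 3.30 to 783 CPM, 7.89 beside 7.96, and 4930558K02Rik from 3.49 to 327 CPM, 6.55 beside 6.55. Among the 10 that stood lowest, Cmss1 went from 3888 to 320 CPM, -3.60 beside -3.64. Whether the condition or another difference between the libraries gave these ratios cannot be told apart, and the same holds for the smaller ones that follow.

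Several cytokine genes were higher in the IR cells. Of 16 tested, 5 were called higher and 2 lower, against 4 and 4 of 17 in the other Cd3 cells. With the removed features kept, 3 of 16 were called higher and 2 lower, and Ifng and Ltb, at log2 ratios of 0.98 and 0.87, were no longer called. Ifng was at 457 CPM in control and 1002 CPM in IR, a log2 ratio of 1.13, beside 1.04 in the other Cd3 cells. Ccl5 was at 1698 and 6194 CPM, 1.87 beside 1.66, and Csf2, for GM-CSF, at 24.9 and 129 CPM, 2.38 beside 1.57. Ltb and Lta, for lymphotoxins, had log2 ratios of 1.02 and 1.65. Among the cytotoxic genes Gzmc, a granzyme, went from 4.45 to 90.8 CPM, 4.35 beside 5.24, whereas Prf1 stood at -1.24 beside -1.13.

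Some immediate early genes were higher and some heat shock genes lower in the IR cells. Of 12 immediate early genes 5 were called higher and none lower, beside 7 higher in the other Cd3 cells. Dusp1, a phosphatase that ends MAP kinase signals, was at 607 CPM in control and 2810 CPM in IR, 2.21 beside 2.41, and Nr4a1, a gene induced by receptor signals, was at 2.51 beside 2.18. Of 11 heat shock genes 6 were called lower and none higher, beside 7 lower. Hspa1a, for HSP70, was at 843 and 61.1 CPM, -3.79 beside -3.15, and Hsph1 at -2.53. Not all members went this way. Jun, an AP-1 subunit, was at -0.17 (-0.23 to -0.11) beside 0.25 in the other Cd3 cells, and Atf3 at 0.54 beside 1.42. The median of the immediate early genes was 0.70 beside 1.24, and that of the heat shock genes -1.30 beside -1.20.

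For several NK receptor and adaptor genes the ratio in the chosen cells lay below that in the other Cd3 cells. In the chosen cells 1 receptor gene was called higher and 4 lower of 20 tested, with a median of -0.41, and in the other Cd3 cells 1 and 5 of 20, with a median of -0.08. After thinning to 1000 UMIs per cell these medians were -0.71 and -0.47, with 1 called higher and 7 lower of 21 in the chosen cells and 0 and 3 of 20 in the others. Klra9 was at 147 CPM in control and 55.0 CPM in IR, -1.42 beside -0.32. Klre1 was at -0.42 beside 0.01, Klrk1 at -0.57 beside 0.03 and Klrc1 at -0.51 beside 0.47, none of them called. Klrb1f went the other way, at 0.10 beside -1.14. Fcer1g was at 0.65 beside 1.50, Tyrobp at 0.24 beside 1.64 and Clnk at -1.24 beside -0.83. After thinning, Fcer1g and Tyrobp were at 0.25 and -0.16 in the chosen cells, and the count of adaptor genes called higher in the other Cd3 cells went from 2 to 0 of 15. No replicate error was available for these differences. Ctla4 was at 1.68 in the chosen cells beside 0.18, and Il7r at 1.75 beside 2.78. Slamf1 was at -2.70 beside -2.16, and Kcnq5 went from 2697 to 1008 CPM, -1.42 beside -1.38.

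**Figure D5:**
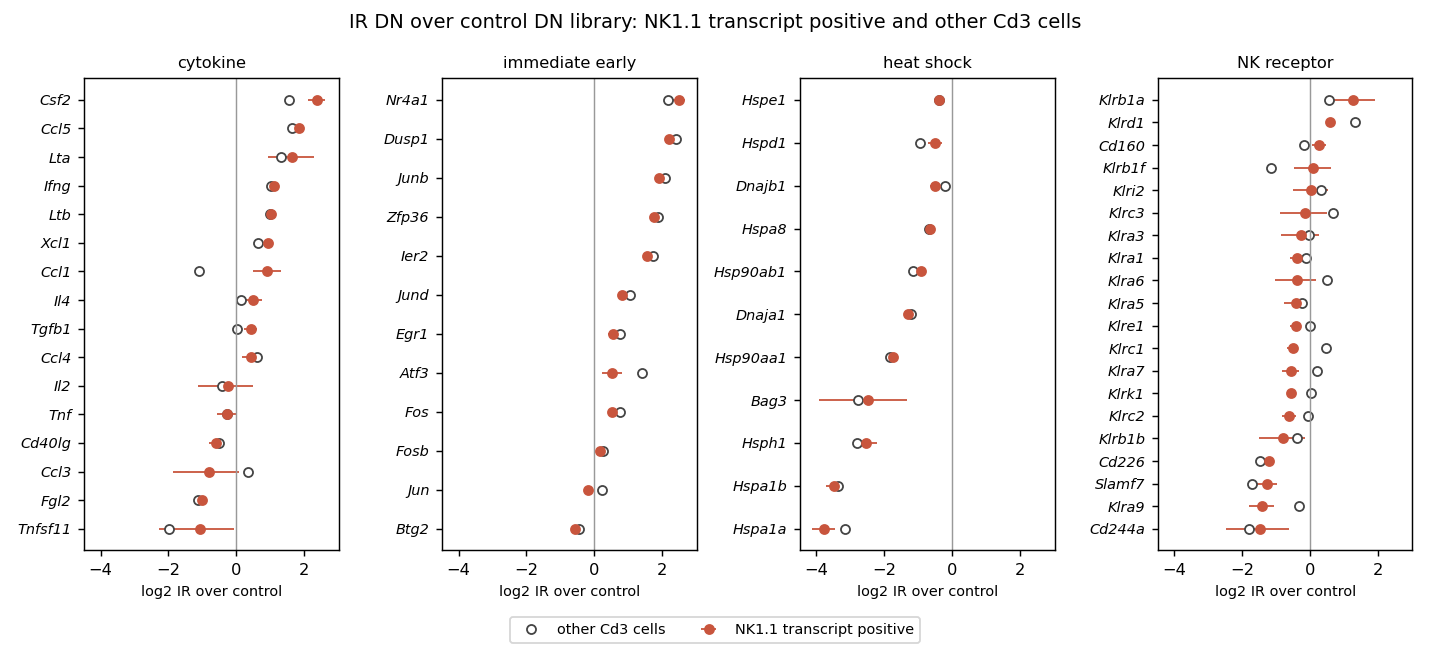
Log2 ratio of IR DN over control DN CPM (x axis) for genes (y axis) of 4 lists, in NK1.1 transcript positive cells (red, with exact 95% intervals) and in the other Cd3 cells (open circles). Immediate early genes reach 2.51 for Nr4a1 and heat shock genes -3.79 for Hspa1a, where the open circles lie at 2.18 and -3.15, and Klra9 among the NK receptor genes is at -1.42 with its open circle at -0.32.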

How the data were processed

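Kidney αβ T cells of 2 conditions and 3 sorts were sequenced with 10x Genomics 3′ chemistry. The authors deposited raw, unnormalized UMI counts, obtained by Cell Ranger with the mm10 genome. File headers name version 5.0.1 for control and 6.0.1 for IR libraries, and the submitters' processing notes name 6.0.1 for all. No source used here states whether introns were counted.

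Groups came from sample titles. Members, gene lists (22 lists, 250 genes) and tests were chosen with earlier results of these data known. Counts were summed over cells without 104 of 32285 features (mitochondrial, ribosomal protein, Malat1) and expressed as CPM. Ratios carry exact conditional binomial 95% intervals, levels exact Poisson and shares Clopper-Pearson intervals. Genes named were list members and, per comparison, the 10 largest ratios in each direction at 50 CPM or more, of which some are left out, and exceptions are stated. Some genes are not reported here. No doublet caller was run. The alternatives were TMM scaling (edgeR 4.0.16), the 5% of barcodes with the most UMIs left out, thinning, reweighting by depth, other limits on cells and levels, and barcodes shared between libraries left out. GENCODE M21 gave coordinates for 32158 features. Python 3.11.15, NumPy 2.4.6, SciPy 1.17.1, matplotlib 3.10.9 and R 4.3.3 were used.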

Additional observations from a re-analysis of the deposited data

Results flagged for a closer look

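Pclaf, a gene of DNA replication, had opposite signs in the 2 libraries. Its log2 ratio between NK1.1 transcript positive and other Cd3 cells was -2.08 in the control DN library and 1.02 in the IR DN library, where the 19 UMIs of the chosen cells were all in 1 cell. The difference between the libraries was not tested.

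Klrb1c without Pdcd1 was also found in barcodes of the DN libraries that passed the limits on genes and mitochondrial UMIs but had no Cd3 UMI, and which no comparison used. It was detected in 19.2% of 78 such control barcodes and in 8.75% of 423 such IR barcodes, against 1.81% and 0.242% of barcodes without a Cd3 UMI in the CD8 libraries.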

How the results depend on the processing

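No paired analysis was possible because each group has 1 library. The shares moved with depth and with the Klrb1c minimum. The share of NK1.1 transcript positive cells in control (42.8%) was 16.8% at 1000 and 9.12% at 500 UMIs per cell, 30.0% with at least 2 Klrb1c UMIs, 45.6% with Pdcd1 positive cells kept and 41.3% without barcodes with an Ncr1 UMI. In IR (20.2%) it was 18.5%, 10.6% and 5.44% under the first 3. Control minus IR was 22.6 percentage points as counted, -1.75 and -1.50 points at 1000 and 500 UMIs per cell, 24.6 with at least 2 Klrb1c UMIs and 25.1 with Pdcd1 positive cells kept.

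Of the control counts, 41 higher and 90 lower became 756 and 1201 with no minimum level and 18 and 23 at 50 CPM. The lower count was 50 without the top 5% of barcodes, 52 with a mean over cells and 43 against other Cd3 cells without Pdcd1. The IR counts of 69 and 167 became 402 and 910 with no minimum, 8 and 9 at 50 CPM, 42 and 80 with the removed features kept, 305 and 509 after thinning, and 361 and 451 with at least 2 Klrb1c UMIs. The higher IR count was 117 without the top 5% of barcodes and 104 with a mean over cells. Between conditions, 714 and 1143 became 2448 and 1767 with no minimum and 294 and 505 at 50 CPM. The comparisons without Pdcd1 positive or without Ncr1 positive barcodes were chosen after seeing the data.

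Among the called genes named here, none changed sign in control under 12 alternatives. Of all 131 called in control, 1 did, against other Cd3 cells without Pdcd1. After thinning 21 of 222 called in IR and 15 of 1836 called between conditions changed sign, and with at least 2 Klrb1c UMIs 8 of 235 and 10 of 1847. Also called after thinning were 25 of the 41 higher and 34 of the 90 lower in control, and 26 of 69 and 70 of 167 in IR. In IR, Pclaf was at -1.01 with a mean over cells and -0.18 after thinning, and Olfr1369-ps1 at -2.08 after thinning. For IR over control, Olfr1369-ps1 was at -1.27 after thinning. The cause was not tested.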
